A study of Homo sapiens with 6 samples.

Results

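The 59 genes described here lie along the long arm of human chromosome 22 and were read in HEK-293T cells with and without THUMPD1. The chromosome was chosen by the measured values themselves, since most of its genes were lower in THUMPD1 KO than in WT in these same 6 libraries, and the symbols were then listed from the centromere to the end of the arm to cover many functions. All 59 were found in the table and all passed the filter on low values (a level of 1 CPM or more in 3 or more of the 6 libraries, where CPM is a count scaled to the total of its library). They are 59 of 375 tested genes of chromosome 22 and of 15088 tested genes in all. Because the contrast of THUMPD1 KO against WT selected the chromosome, the level, direction and number of lower genes among the 59 are given as a description, without a test.

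THUMPD1 is the adaptor that carries the acetyltransferase NAT10 to transfer RNA, and the study asked what its loss does to mammalian cells. HEK-293T is an immortalized human embryonic kidney line. The WT group (genotype Thumpd+/+, 3 libraries) is the parental line, and the THUMPD1 KO group (genotype Thumpd-/-, 3 libraries) was made from it with CRISPR-Cas9 and single-cell sorting, so a clone is compared with the population it came from. Both groups were grown in DMEM with no other treatment, and total RNA depleted of ribosomal RNA was sequenced.

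Chromosome 22 is a small, gene-dense human chromosome whose short arm holds mainly ribosomal DNA and repeats, so nearly all of its protein-coding genes lie on the long arm. Many of the genes next to each other on it have little to do with each other in function. The list holds proteins that cut and splice RNA, read and write chromatin, carry cargo through the nuclear pore, repair DNA, build actomyosin, sort membranes, serve mitochondria and relay signals. Several are known from disease. DGCR2, DGCR8, HIRA, TANGO2, RANBP1 and ZDHHC8 lie in the stretch lost in the DiGeorge deletion, BCR and EWSR1 are fusion partners in leukaemia and in Ewing sarcoma, and NF2, SMARCB1 and CHEK2 are tumour suppressors. Many of the proteins work inside complexes whose other subunits are encoded on other chromosomes, which is why those partners were read beside them.

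The sequence just upstream of the annotated start is shown for the genes with the most and the least lowered levels among the 52 members with an entry in the promoter table of RefSeq (build GRCh38.p14), to set genes from both ends of the range beside each other. The windows are chr22:23980505-23980754 (minus strand) for DDT, chr22:23180259-23180508 (plus strand) for BCR, chr22:29268018-29268267 (plus strand) for EWSR1 and chr22:38755999-38756248 (minus strand) for SUN2. Each is written 5′ to 3′ over 250 bases, and capitals mark a match on either strand to 1 of 4 short motifs, which are the GC box GGGCGG, the CCAAT box, the core CCGGAA of ETS sites, and the core promoter element TATAAA. The starts are those of RefSeq, and for all 4 genes they differ from the outer ends of the genes in GENCODE.
DDT: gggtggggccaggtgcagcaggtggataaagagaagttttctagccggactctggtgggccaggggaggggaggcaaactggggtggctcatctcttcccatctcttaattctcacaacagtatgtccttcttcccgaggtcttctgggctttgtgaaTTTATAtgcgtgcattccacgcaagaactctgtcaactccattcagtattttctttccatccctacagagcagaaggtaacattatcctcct
BCR: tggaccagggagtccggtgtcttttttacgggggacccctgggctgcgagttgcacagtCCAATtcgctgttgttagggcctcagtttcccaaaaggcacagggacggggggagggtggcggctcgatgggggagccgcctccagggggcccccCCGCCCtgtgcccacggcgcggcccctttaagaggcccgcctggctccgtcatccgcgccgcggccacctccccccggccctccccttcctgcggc
EWSR1: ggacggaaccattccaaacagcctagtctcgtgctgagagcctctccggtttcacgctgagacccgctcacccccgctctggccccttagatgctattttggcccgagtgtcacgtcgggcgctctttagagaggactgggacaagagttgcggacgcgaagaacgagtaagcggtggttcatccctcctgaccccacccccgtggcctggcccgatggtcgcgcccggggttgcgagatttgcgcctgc
SUN2: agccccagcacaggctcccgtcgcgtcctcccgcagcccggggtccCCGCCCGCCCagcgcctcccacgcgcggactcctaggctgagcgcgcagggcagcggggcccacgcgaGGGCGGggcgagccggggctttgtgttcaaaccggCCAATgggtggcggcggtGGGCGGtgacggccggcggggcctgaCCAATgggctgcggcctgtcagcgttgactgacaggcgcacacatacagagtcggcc

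DDT had 4 CpG dinucleotides in this window, BCR 20, EWSR1 22 and SUN2 30. The 52 members had a median of 27.0 CpG (range 4 to 48), against 11.0 over 27305 annotated promoters. A GC box was found in 76.9% of the members and in 42.3% of all promoters, the CCAAT box in 30.8% and 33.0%, the ETS core in 21.2% and 14.8%, and the TATA element in 3.85% and 11.1%. These sets are not alike. The members are protein-coding genes that all passed the filter on low values, whereas the annotated promoters were not chosen by level. Members with a GC box had a median log2 fold change of −0.32, and those without it −0.27. Across the 52 members, which share the same libraries, CpG number and log2 fold change had a Spearman correlation of 0.30. Over the 238 tested genes of the chromosome with an entry it was −0.02.

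Total expected counts were between 32225646 and 44099898 per library, and genes of chromosome 22 took between 2.37% and 2.45% of them in WT and between 1.91% and 1.99% in THUMPD1 KO. The targeted gene followed the labels. THUMPD1 was at 77.3, 84.6 and 80.8 CPM in the WT libraries against 10.2, 12.0 and 10.9 CPM in THUMPD1 KO, a log2 fold change of −2.87, and a two-sided exact permutation test gave p = 0.1, the smallest that 3 against 3 libraries allow. All 7 markers of embryonic kidney and HEK cells were expressed, with a summed level of 461 to 492 CPM in WT and 370 to 414 CPM in THUMPD1 KO. None of the 7 markers of mature kidney passed the filter, with sums of at most 0.0511 CPM in WT and 0.159 CPM in THUMPD1 KO. Of 6 markers of other cells 1 passed, COL1A1, and the list summed to 12.9 to 17.1 CPM in WT and 9.14 to 13.0 CPM in THUMPD1 KO, with HBB at 0 in every library, as were the mature kidney markers UMOD, SLC34A1 and AQP2. The sum of the embryonic kidney and HEK list was thus lower in THUMPD1 KO, and its part in the results was not tested. In bulk RNA, fewer cells of a type and less RNA per cell cannot be told apart, and the files hold RNA counts only.

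Every one of the 59 members had a negative log2 fold change in THUMPD1 KO against WT. The median was −0.31, or 80.4% of the WT level, and the middle 50% of the members lay between −0.40 and −0.23. In 54 of the 59 members (91.5%) all 3 THUMPD1 KO libraries were below all 3 WT libraries, a pattern that 17.6% of all tested genes showed. By limma-voom with a Benjamini-Hochberg adjusted p under 0.05, 53 members (89.8%) were lower and 0 were higher. Of all tested genes 13.0% were lower and 13.7% were higher by this rule. Among the 375 tested genes of chromosome 22, 72.0% were lower without overlap and 67.5% were called lower. For the 316 of them that were not listed, these shares were 68.4% and 63.3%. Both shares were thus higher among the listed genes than in the rest of the chromosome. Since lower levels chose the chromosome, nothing is read from these counts.

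The lower level was seen in each library and not in an average alone. Relative to the WT mean, the member median was 0.04, −0.03 and 0.00 log2 units in the WT libraries and −0.32, −0.33 and −0.29 log2 units in the THUMPD1 KO libraries, with an SD of 0.02 between the latter. The 375 tested genes of the chromosome gave medians between −0.01 and 0.01 for single WT libraries, against −0.33, −0.34 and −0.32 for those of THUMPD1 KO. Their median log2 fold change was −0.34, or 79.2% of WT, with 353 negative and 22 positive. The 316 tested genes that were not listed had a median of −0.34, close to that of the members, whereas the 14713 tested genes outside chromosome 22 had a median of 0.02. The medians of the other 22 chromosomes were between −0.06 and 0.11, and no THUMPD1 KO library took the median of another chromosome below −0.09 or above 0.12. The next lowest median was that of chromosome 16, which carries THUMPD1.

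**Figure D1:**
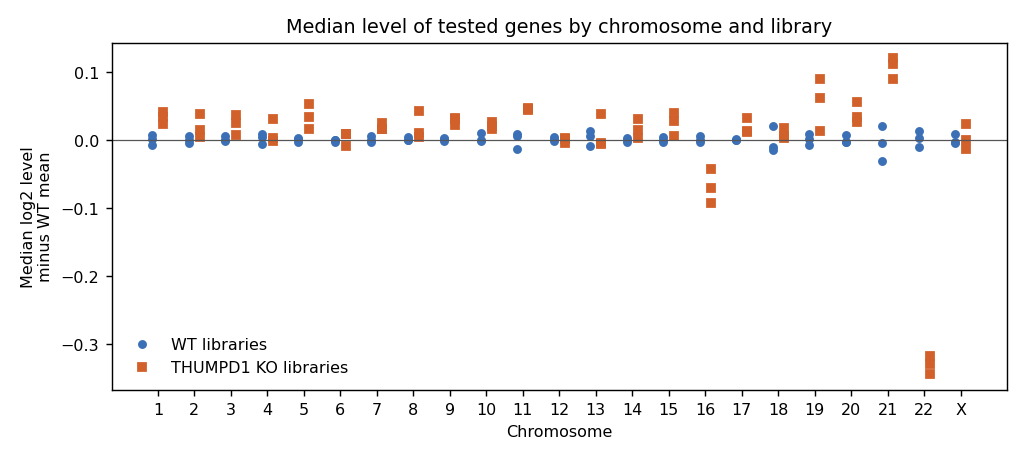
Median log2 level of the tested genes of each chromosome in each library, relative to the WT mean (vertical axis, log2 units), for WT (circles) and THUMPD1 KO (squares). The 3 THUMPD1 KO libraries of chromosome 22 sit between −0.34 and −0.32, while those of every other chromosome plotted lie between −0.09 and 0.12.

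The lower level was found along the whole arm in the medians of gene groups, although not in every gene. When the 375 genes were put into 10 groups of equal size by position, the group medians were −0.30, −0.42, −0.36, −0.32, −0.34, −0.35, −0.30, −0.28, −0.35 and −0.33 from the centromere outwards. They spanned 0.14 log2 units. In single THUMPD1 KO libraries the group medians were between −0.40 and −0.24, and in single WT libraries between −0.05 and 0.05, so no group of any THUMPD1 KO library reached the WT range. The first group covered GRCh38 chromosome 22 from 15784959 to 19520612 and the last from 46295143 to 50799123. Among protein-coding genes near the inner end, IL17RA, a receptor for interleukin-17, had a log2 fold change of −0.62 and HDHD5 of −0.48, while TMEM121B was at −0.08 with 3.70 to 4.99 CPM in every library. The tested genes of other types still nearer to the centromere did not reach the group medians. They were DUXAP8 (−0.16), ENSG00000271127 (−0.14), ENSG00000272872 (0.06), ENSG00000283633 (0.83) and TPTEP1 (0.85). At the outer end, ARSA, a lysosomal sulfatase, was at −0.57, the synaptic scaffold SHANK3 at −0.50 and RABL2B at −0.33. Position had almost no rank relation with the log2 fold change, with a Spearman correlation of 0.07 over the 375 genes and of 0.07 over the 59 members, both as a description across genes that share the same 6 libraries.

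**Figure D2:**
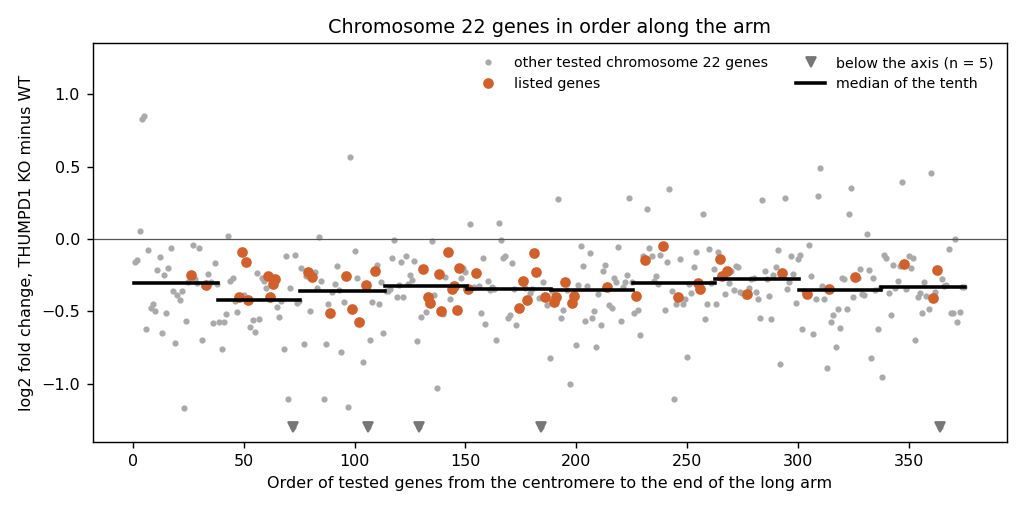
Log2 fold change of THUMPD1 KO minus WT (vertical axis) for the 375 tested genes of chromosome 22 in their order along the arm (horizontal axis), with the 59 listed genes as large points and the median of each of 10 groups as a bar. The bars stay between −0.42 and −0.28, 22 genes lie above 0, and 5 genes below −1.3 are drawn as triangles at the lower edge.

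Although each of the 10 groups was lower, single genes side by side often differed. The members' values had an interquartile range of 0.17, against 0.26 for all tested genes of the chromosome and between 0.22 and 0.48 for the other chromosomes. The range of the members is not on like terms with the others. Their median SE was 0.05, against 0.07 for all tested genes of the chromosome. Each member was compared with the median of the 375 genes in units of its own SE, which lay between 0.04 and 0.09. Of the 59 members 36 lay within 2 SE of that median, 10 lay more than 3 SE above it and 3 more than 3 SE below it. Of all 375 tested genes, by the same measures, 213 lay within 2 SE, 58 above and 46 below. Standing apart from the median was thus not particular to the listed genes. The members above it were PITPNB, NF2, BRD1, RANBP1, DDX17, RBX1, DEPDC5, DGCR8, EWSR1 and SUN2, and those below it were DDT, BCR and MIF. Successive members had a Pearson r of −0.12 over 58 neighbouring pairs, again as a description. The lowest expected count of any member in any library was 281.

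SUN2 (ENSG00000100242.15, GRCh38 chromosome 22, 38733290 to 38794143, minus strand) had the smallest change of all members. It encodes an inner nuclear membrane protein that links the lamina to the cytoskeleton as part of the LINC complex. SUN2 stood at 51.2, 45.3 and 46.5 CPM in the WT libraries, against 47.0, 44.4 and 47.3 CPM in the THUMPD1 KO libraries. The groups overlapped, THUMPD1 KO was at 96.9% of WT, and the log2 fold change was −0.05 ± 0.05 (SE), or 0.02 once a trend in GC content and length was taken out. SUN2 lies between DDX17, 225.6 kb away, and CBX7, 326 kb away, which had log2 fold changes of −0.14 ± 0.05 and −0.40 ± 0.09. The tested genes between DDX17 and CBX7 ranged from −1.11 (APOBEC3C) to 0.35 (NPTXR). In order along the arm, JOSD1 (−0.31) and GTPBP1 (−0.11) came just before SUN2. ENSG00000272669 (−0.49) and DNAL4 (−0.16) came just after it, so small changes near SUN2 were mixed with larger ones. SUN2 overlaps 8 other annotated genes, more than most members.

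EWSR1 (ENSG00000182944.17, GRCh38 chromosome 22, 29268009 to 29300525, plus strand) encodes an RNA-binding protein of the FET family. EWSR1 stood at 482, 457 and 446 CPM in the WT libraries, against 449, 449 and 438 CPM in the THUMPD1 KO libraries. Its THUMPD1 KO libraries overlapped the WT libraries, the level was 96.4% of WT, and the log2 fold change was −0.09 ± 0.04. Its nearest listed neighbours did not share that value. KREMEN1, which ends 99.7 kb before it, was at −0.50 ± 0.08 and AP1B1, which starts 27.2 kb after it, at −0.34 ± 0.05.

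DGCR8 (ENSG00000128191.16, GRCh38 chromosome 22, 20080221 to 20111877, plus strand) binds the hairpins of primary microRNAs and with DROSHA makes up the core of Microprocessor. DGCR8 stood at 105, 98.8 and 93.4 CPM in the WT libraries, against 96.9, 90.8 and 93.9 CPM in the THUMPD1 KO libraries. The groups overlapped and the log2 fold change was −0.09 ± 0.05, 94.7% of WT. It lies in a tight row of genes that did not move alike. TANGO2, 13.1 kb before it, was at −0.40 ± 0.09, RANBP1, 4.1 kb after it, at −0.16 ± 0.04, and ZDHHC8, 2.1 kb after RANBP1, at −0.42 ± 0.06.

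DEPDC5 (ENSG00000100150.18, GRCh38 chromosome 22, 31753867 to 31908033, plus strand) is a subunit of GATOR1, the complex that inhibits mTORC1 when amino acids are scarce. DEPDC5 stood at 27.3, 23.9 and 22.7 CPM in the WT libraries, against 22.7, 23.4 and 22.8 CPM in the THUMPD1 KO libraries. One WT library stood above the other libraries, which overlapped, and the log2 fold change was −0.10 ± 0.07. DEPDC5 lies between SFI1 (−0.42 ± 0.08) and YWHAH (−0.23 ± 0.05).

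RBX1 (ENSG00000100387.8, GRCh38 chromosome 22, 40951347 to 40973309, plus strand) is the RING subunit shared by cullin ubiquitin ligases. RBX1 stood at 57.7, 63.3 and 62.5 CPM in the WT libraries, against 58.6, 55.1 and 51.8 CPM in the THUMPD1 KO libraries. The highest THUMPD1 KO library was above the lowest WT library, and the log2 fold change was −0.14 ± 0.06. Its listed neighbours ADSL and EP300 were at −0.35 ± 0.05 and −0.25 ± 0.05.

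DDX17 (ENSG00000100201.21, GRCh38 chromosome 22, 38483438 to 38507660, minus strand), a DEAD-box RNA helicase, was the member with the highest count per library. DDX17 stood at 1684, 1581 and 1563 CPM in the WT libraries, against 1417, 1424 and 1444 CPM in the THUMPD1 KO libraries. Here the groups did not overlap, but the log2 fold change of −0.14 ± 0.05 missed the limma-voom threshold, and in the fit that blocks on replicate number the same change of −0.14 passed it. DDX17 was called lower in 7 of 17 settings. It was at −0.20 by both edgeR (adjusted p = 0.00486) and DESeq2 (adjusted p = 7.711e-05). DGCR8 and DDX17 are both found in Microprocessor complexes, and EWSR1 is found in its larger form. That these members with small changes share such a link was seen only after their values were known. DROSHA, on chromosome 5, was at 138, 135 and 135 CPM in the WT libraries and at 144, 151 and 150.0 CPM in THUMPD1 KO, with a log2 fold change of 0.10 that did not pass (limma-voom adjusted p = 0.0886).

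**Figure D3:**
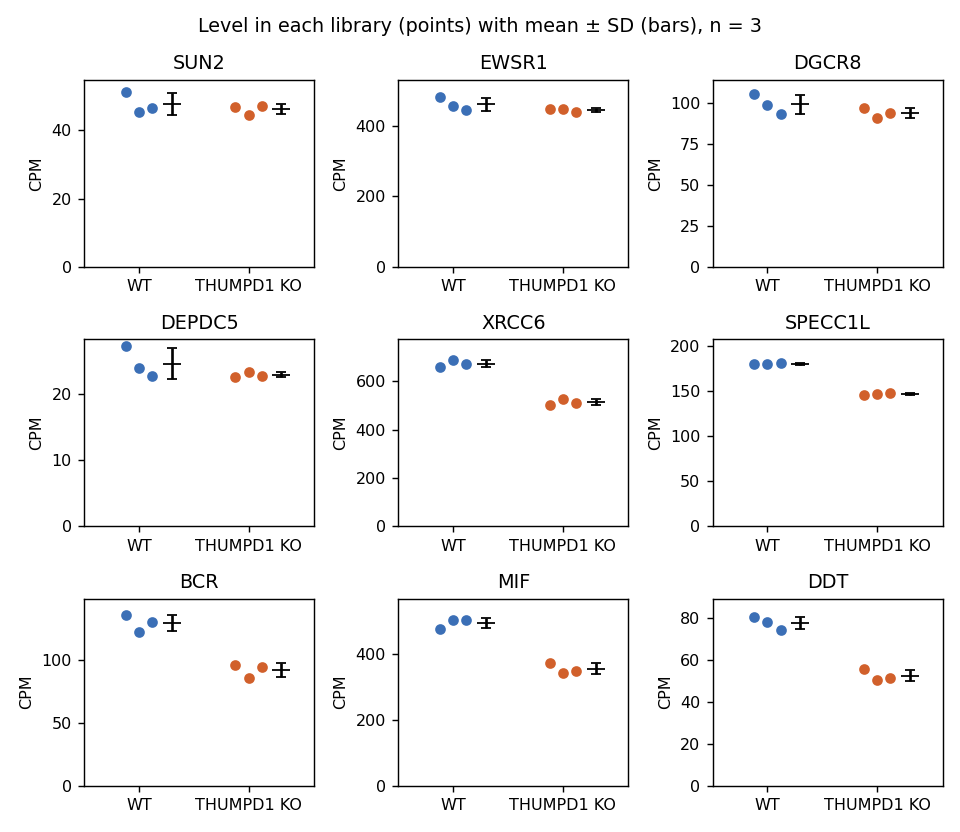
CPM in each library (points) with the mean and SD beside them (bars, n = 3) for 9 listed genes in WT and THUMPD1 KO, on axes that start at 0. SUN2, EWSR1, DGCR8 and DEPDC5 overlap between genotypes, while XRCC6, SPECC1L, BCR, MIF and DDT do not.

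At the other end of the range, DDT, MIF and BCR lay more than 3 SE below the median of the chromosome. DDT (ENSG00000099977.14, GRCh38 chromosome 22, 23970542 to 23980525, minus strand) and MIF (ENSG00000240972.2, GRCh38 chromosome 22, 23894383 to 23895227, plus strand) are homologous tautomerases, and MIF is also a secreted cytokine. DDT stood at 80.6, 78.3 and 74.6 CPM in the WT libraries, against 55.6, 50.5 and 51.6 CPM in the THUMPD1 KO libraries. MIF stood at 474, 502 and 502 CPM in the WT libraries, against 373, 341 and 347 CPM in the THUMPD1 KO libraries. The genotypes were well apart in both genes, with log2 fold changes of −0.57 ± 0.05 and −0.49 ± 0.05 and levels of 67.6% and 71.8% of WT. With a trend in GC content and length taken out, MIF moved to −0.31, close to the chromosome median of −0.30 in that setting, while DDT was at −0.56 and BCR at −0.43. BCR stood at 136, 122 and 130.0 CPM in the WT libraries, against 95.7, 85.8 and 94.3 CPM in the THUMPD1 KO libraries. BCR (ENSG00000186716.20, GRCh38 chromosome 22, 23179704 to 23318037, plus strand), a regulator of small GTPases with a kinase domain, was at −0.51 ± 0.05, or 71.1% of WT. SMARCB1, which lies between BCR and MIF on the arm, did not share this value and was at −0.25 ± 0.04. DDTL, a close copy of DDT with 11.0% of the DDT count over the 6 libraries, was at −0.08, and BCRP2, with 3.91% of the BCR count over the same libraries, was at −0.76. How the counting divided reads between such copies is uncertain.

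RNA processing and export held DGCR8, EWSR1 and DDX17, which all missed the limma-voom threshold. Its 8 members had a median of −0.23 and 6 of them did not overlap between genotypes. All THUMPD1 KO libraries were below all WT libraries in 72.0% of tested chromosome 22 genes and in 17.6% of all tested genes. Nothing about a group is read from such counts, here or in the groups below. It also holds SNRPD3 (−0.22 ± 0.04) of the Sm ring that surrounds spliceosomal RNAs, SF3A1 (−0.23 ± 0.05) of the U2 particle, THOC5 (−0.32 ± 0.04) of the THO complex for mRNA export, the splicing regulator RBFOX2 (−0.29 ± 0.05) and TNRC6B (−0.30 ± 0.05), the scaffold through which Argonaute silences mRNA. SNRPD3 stood at 183, 196 and 187 CPM in the WT libraries, against 163, 164 and 163 CPM in the THUMPD1 KO libraries. The THUMPD1 KO values of SNRPD3 were almost equal and all below WT. THOC5 stood at 103, 97.3 and 98.0 CPM in the WT libraries, against 83.2, 78.9 and 77.9 CPM in the THUMPD1 KO libraries. TNRC6B stood at 204, 182 and 198 CPM in the WT libraries, against 154, 160.3 and 162 CPM in the THUMPD1 KO libraries. In both genes the THUMPD1 KO libraries lay close together and below WT.

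Nuclear transport and envelope had a median of −0.19 over 4 members. RANBP1 and RANGAP1, which help Ran to hydrolyse GTP in the cytoplasm, were at −0.16 ± 0.04 and −0.22 ± 0.05, and NUP50 of the nuclear pore basket at −0.26 ± 0.05. RANGAP1 stood at 262, 284 and 284 CPM in the WT libraries, against 235, 231 and 253 CPM in the THUMPD1 KO libraries. NUP50 stood at 216, 236 and 232 CPM in the WT libraries, against 186, 192 and 196 CPM in the THUMPD1 KO libraries. SUN2 was the only 1 of the 4 whose genotypes overlapped.

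All 9 members of the chromatin and transcription group lay below WT without overlap, with a median of −0.26. Of the tested chromosome 22 genes 72.0% did so, and of all tested genes 17.6%. EP300 (ENSG00000100393.13, GRCh38 chromosome 22, 41092592 to 41180077, plus strand), the acetyltransferase p300, was at −0.25 ± 0.05. EP300 stood at 244, 228 and 242 CPM in the WT libraries, against 191, 201 and 213 CPM in the THUMPD1 KO libraries. HIRA, the chaperone that deposits histone variant H3.3, was at −0.32 ± 0.05, MED15 of the Mediator tail at −0.26 ± 0.06 and TCF20, a transcriptional coregulator, at −0.23 ± 0.04. SMARCB1 stood at 174, 169 and 169 CPM in the WT libraries, against 141, 144 and 148 CPM in the THUMPD1 KO libraries. SMARCB1, a core subunit of BAF chromatin remodellers, thus varied little within each genotype. The largest change was that of PATZ1, a zinc-finger transcription factor, at −0.47 ± 0.07, followed by the HMG-box protein HMGXB4 at −0.43 ± 0.07 and the polycomb protein CBX7 at −0.40 ± 0.09. BRD1, a scaffold of the HBO1 acetyltransferase, was the smallest at −0.17 ± 0.05. BRD1 stood at 69.6, 61.1 and 63.1 CPM in the WT libraries, against 56.5, 55.7 and 59.5 CPM in the THUMPD1 KO libraries. Its nearest libraries were 1.58 CPM apart, and it was called lower in 10 of 17 settings.

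The 3 members of DNA repair and topology had a median of −0.38. XRCC6 (ENSG00000196419.12, GRCh38 chromosome 22, 41621163 to 41664048, plus strand) encodes Ku70, which with Ku80 holds broken DNA ends. XRCC6 stood at 660.0, 688 and 672 CPM in the WT libraries, against 502, 528 and 511 CPM in the THUMPD1 KO libraries. XRCC6 had a log2 fold change of −0.38 ± 0.04 with no overlap. CHEK2, the checkpoint kinase, was at −0.45 ± 0.07 and TOP3B, a topoisomerase that acts on DNA and RNA, at −0.26 ± 0.05. CHEK2 stood at 31.5, 36.4 and 34.4 CPM in the WT libraries, against 25.8, 25.3 and 23.1 CPM in the THUMPD1 KO libraries. TOP3B stood at 64.0, 63.9 and 61.7 CPM in the WT libraries, against 49.9, 53.3 and 55.3 CPM in the THUMPD1 KO libraries. Both were lower in every THUMPD1 KO library.

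The cytoskeleton and centrosome group had a median of −0.40 over 5 members. MYH9 (ENSG00000100345.21, GRCh38 chromosome 22, 36281280 to 36388010, minus strand) encodes the heavy chain of nonmuscle myosin IIA. MYH9 stood at 385, 376 and 390.3 CPM in the WT libraries, against 272, 287 and 308 CPM in the THUMPD1 KO libraries. MYH9 had a log2 fold change of −0.44 ± 0.05. SPECC1L stood at 179.8, 179.7 and 182 CPM in the WT libraries, against 145, 147 and 147 CPM in the THUMPD1 KO libraries. SPECC1L, which joins actin to microtubules, had the smallest SE of all members and a log2 fold change of −0.31 ± 0.04. The others were SFI1 of the centrosome (−0.42 ± 0.08), TTC28 (−0.40 ± 0.07) and the actin-bundling protein TRIOBP (−0.33 ± 0.08). DRG1 and SFI1 share 41947 bases on the same strand, so part of their reads may have been exchanged.

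Membrane traffic and lipids was a group of 10 members, each of them below WT without overlap, with a median of −0.36. The share of genes below WT without overlap was 72.0% over the tested chromosome 22 genes and 17.6% over all tested genes. PI4KA (ENSG00000241973.10, GRCh38 chromosome 22, 20707691 to 20859417, minus strand) makes phosphatidylinositol 4-phosphate at the plasma membrane. PI4KA stood at 142, 134 and 138 CPM in the WT libraries, against 102, 102 and 114 CPM in the THUMPD1 KO libraries. PI4KA had a log2 fold change of −0.40 ± 0.05, and the pseudogenes PI4KAP1 and PI4KAP2, with 45.0% and 36.6% of its count over the 6 libraries, were at −0.39 and −0.34. Values from −0.42 to −0.38 were also found in the palmitoyltransferase ZDHHC8, the endosomal sorting protein TOM1 (−0.40 ± 0.09), TANGO2 and the membrane-bending protein PACSIN2 (−0.38 ± 0.04). PACSIN2 stood at 71.9, 67.3 and 69.8 CPM in the WT libraries, against 53.8, 52.8 and 53.3 CPM in the THUMPD1 KO libraries. The phosphoinositide phosphatase MTMR3 (−0.35 ± 0.06), the clathrin adaptor subunit AP1B1 and the SNARE protein SNAP29 (−0.31 ± 0.05) came next. The smallest changes were those of SBF1 (−0.21 ± 0.06) and of the phosphatidylinositol transfer protein PITPNB (−0.21 ± 0.04). SBF1 was called lower in 12 of 17 settings and moved to −0.14 without replicate 2 of THUMPD1 KO and to −0.11 with the trend in GC content and length removed. PITPNB stood at 179, 188 and 183 CPM in the WT libraries, against 155, 166 and 159.8 CPM in the THUMPD1 KO libraries. PI4KA and SNAP29 overlap on opposite strands by 411 bases.

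The 4 members of mitochondria and metabolism had a median of −0.37. TXN2 stood at 58.6, 60.0 and 57.3 CPM in the WT libraries, against 46.6, 45.4 and 41.6 CPM in the THUMPD1 KO libraries. TXN2, the mitochondrial thioredoxin, was at −0.40 ± 0.05. SAMM50, which inserts barrel proteins into the outer membrane, was at −0.34 ± 0.05 and ADSL, an enzyme of purine synthesis, at −0.35 ± 0.05. NIPSNAP1 stood at 77.5, 71.6 and 75.5 CPM in the WT libraries, against 60.2, 49.0 and 51.4 CPM in the THUMPD1 KO libraries. NIPSNAP1, a protein that marks damaged mitochondria for removal, had the largest change of the group at −0.49 ± 0.07. It shares 409 bases with THOC5 on the same strand.

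Signalling and receptors was the largest group, with 13 members and a median of −0.28. In 12 of them the genotypes did not overlap, with DEPDC5 the exception. Beside this count stand 72.0% of the tested chromosome 22 genes and 17.6% of all tested genes below WT without overlap. NF2 (ENSG00000186575.17, GRCh38 chromosome 22, 29603556 to 29698598, plus strand) encodes merlin, a regulator of the Hippo pathway. NF2 stood at 167, 169 and 178 CPM in the WT libraries, against 151, 145 and 155 CPM in the THUMPD1 KO libraries. It was at −0.20 ± 0.04, among the 10 members that lay more than 3 SE above the median of the chromosome. In Wnt signalling, KREMEN1, a receptor for Dickkopf, had one of the larger changes, and ZNRF3, which removes Wnt receptors, and the kinase CSNK1E were at −0.24 ± 0.06 and −0.40 ± 0.05. KREMEN1 stood at 51.9, 44.5 and 46.1 CPM in the WT libraries, against 37.1, 29.7 and 34.4 CPM in the THUMPD1 KO libraries. CSNK1E stood at 362, 336 and 335 CPM in the WT libraries, against 277, 255 and 266 CPM in the THUMPD1 KO libraries. Both genes were lower in all THUMPD1 KO libraries. The adaptor CRKL (−0.28 ± 0.04), the phosphatase PPM1F (−0.23 ± 0.04), the receptor-like protein DGCR2 (−0.25 ± 0.05), YWHAH of the 14-3-3 family (−0.23 ± 0.05) and the semaphorin receptor PLXNB2 (−0.40 ± 0.06) completed the group.

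In the ubiquitin and translation group of 3 members, with a median of −0.29, FBXO7, an adaptor of SCF ligases, was at −0.40 ± 0.05 and DRG1, a GTPase that acts at the ribosome, at −0.29 ± 0.05. FBXO7 stood at 105, 98.5 and 94.1 CPM in the WT libraries, against 78.3, 74.9 and 74.0 CPM in the THUMPD1 KO libraries. DRG1 stood at 81.8, 85.0 and 90.0 CPM in the WT libraries, against 69.1, 69.8 and 70.8 CPM in the THUMPD1 KO libraries. Both differed from RBX1 in that their genotypes did not overlap.

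Several properties of the genes were set beside their values as a description. Over the 375 tested genes the Spearman correlation with the log2 fold change was 0.09 for the WT level, 0.01 for gene length and −0.29 for the GC content of the longest transcript. Over the 59 members it was 0.27 for the WT level, 0.00 for gene length and −0.22 for GC content. The 7 members that overlap no other annotated gene had a median of −0.40 and the 52 that overlap a gene −0.31. Over the chromosome the same medians were −0.39 (92 genes) and −0.31 (283 genes). The strand setting of the counting was not stated, so reads of overlapping genes may not be told apart. Protein-coding genes (299) had a median of −0.34 and other gene types (76) of −0.32.

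The partners that work in complexes with the members lie on other chromosomes, so the choice of chromosome 22 did not use their values, although it did use those of the members set beside them. A list of 75 partners of 27 members was drawn up, none of them on chromosome 22, and 74 were tested. Their median log2 fold change was 0.01, against −0.26 for the 27 members, whose lower level follows from that choice. Of the 74, 11 were lower (14.9%) and 5 were higher (6.76%) by limma-voom, beside 13.0% and 13.7% of all tested genes. With the replicate block 22 of the 74 were called instead of 16, and the 6 added were TTC7A, EFR3A, MYL12A, SNRPF, CUL3 and MED23. Calls rose over all 15088 tested genes too, from 1959 lower and 2066 higher to 2518 and 2779 with the block. Leaving out replicate 1 of WT gave 15 and leaving out replicate 1 of THUMPD1 KO gave 14, while leaving out replicate 2 or 3 of either genotype gave 10 in each case. Over all tested genes, leaving out a library gave between 1343 and 2069 lower and between 1278 and 2176 higher.

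Within single complexes the member was often lower while its partners were near WT. XRCC5 (Ku80), the other subunit of the Ku dimer, was at 498, 507 and 507 CPM in the WT libraries and at 521, 539 and 503 CPM in THUMPD1 KO. Its log2 fold change of 0.05 (limma-voom adjusted p = 0.363) stood beside −0.38 for XRCC6, and PRKDC, the DNA-dependent kinase they recruit, was at 0.02 (adjusted p = 0.882). In SF3A, the partners SF3A2 (0.01, adjusted p = 0.918) and SF3A3 (−0.07, adjusted p = 0.230) did not pass. For AP1B1, the other AP-1 subunits AP1G1, AP1M1 and AP1S1 were between 0.03 and 0.09 and did not pass, while AP1S2 was higher (0.15, adjusted p = 0.0257, called in 12 of 17 settings). The outer-membrane partners MTX1 and MTX2 of SAMM50 were at 0.01 and −0.03, AGO2 beside TNRC6B at 0.06, ZC3H15 beside DRG1 at 0.00, and the other 14-3-3 genes YWHAB, YWHAE, YWHAG, YWHAQ and YWHAZ were at most 0.09. None of these passed the test.

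For other complexes the partners were mixed. Of the THO partners of THOC5, THOC6 was lower (−0.62, adjusted p = 0.000119), THOC2 and THOC7 were higher (0.12 and 0.18, adjusted p = 0.0490 and 0.0452, both called in 6 of 17 settings), and THOC1 and THOC3 were at 0.10 and 0.09 and did not pass. Of the BAF subunits beside SMARCB1, SMARCC2 was lower (−0.26, adjusted p = 0.00498), and SMARCA4, SMARCC1, SMARCE1 and ARID1A were between −0.09 and 0.08 and did not pass. Of the Sm proteins beside SNRPD3, SNRPD2 was lower (−0.15, adjusted p = 0.0423, called in 8 of 17 settings), and SNRPD1, SNRPB, SNRPE, SNRPF and SNRPG were between 0.01 and 0.13 without passing, though SNRPF passed with the replicate block (adjusted p = 0.0415). The myosin light chain MYL6 was lower (−0.15, adjusted p = 0.0235, called in 13 of 17 settings), while MYL12A (0.17, but adjusted p = 0.0327 with the replicate block) and MYL12B (0.06) did not pass and MYL9 was not tested. SKP1, a partner of RBX1 in SCF ligases, was higher (0.20, adjusted p = 0.00440), and CUL1, CUL2, CUL3, CUL4A and CUL4B were between −0.09 and 0.11 and did not pass, though CUL3 did with the replicate block (adjusted p = 0.0419). TTC7B, which anchors PI4KA, was higher (0.20, adjusted p = 0.0190, called in 13 of 17 settings), and TTC7A (0.19), EFR3A (−0.16) and HYCC1 (−0.02) did not pass. With the replicate block TTC7A and EFR3A did (adjusted p = 0.0487 and 0.0188).

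The lowest partners included genes with larger changes than their members. VAMP8, a SNARE that pairs with SNAP29, was at 11.1, 8.89 and 9.55 CPM in the WT libraries and at 6.56, 4.42 and 4.62 CPM in THUMPD1 KO. It was lower by limma-voom (−0.97, adjusted p = 0.000381), and its other partner STX17 (0.06) did not pass. RNF43, which like ZNRF3 removes Wnt receptors, was at 16.1, 16.9 and 16.6 CPM in the WT libraries and at 10.1, 9.05 and 8.70 CPM in THUMPD1 KO (−0.82, adjusted p = 4.942e-05). LGR4, the R-spondin receptor that acts on both, was lower (−0.16, adjusted p = 0.0300, called in 12 of 17 settings), and the Wnt coreceptor LRP6 (−0.09) did not pass.

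Of the 11 lower partners 5 lie on chromosome 16, where 6 were tested, and 30.7% of all tested genes of that chromosome were lower. They included UBN1 beside HIRA (−0.32, adjusted p = 0.00206), THOC6, NPRL3 beside DEPDC5 (−0.64, adjusted p = 8.796e-05) and CREBBP beside EP300 (−0.31, adjusted p = 0.00599), all by limma-voom. AP1G1 was the chromosome 16 partner that did not pass. Outside chromosome 16, 6 of 68 partners (8.82%) were lower. In GATOR1 the partner was the lower one, since NPRL3 was at 27.7, 26.5 and 28.1 CPM in the WT libraries and at 17.0, 16.7 and 18.8 CPM in THUMPD1 KO while DEPDC5 overlapped between genotypes and NPRL2 (−0.09) did not pass. Both acetyltransferases of the EP300 and CREBBP pair were at similar values. The remaining partners of HIRA, RANGAP1, MED15, TOP3B, NUP50, SUN2, BRD1 and CBX7 were between −0.09 and 0.12 and did not pass, although MED23 of Mediator did with the replicate block (adjusted p = 0.0331).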

How the data were processed

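The authors aligned paired-end reads of stranded, ribosomal RNA-depleted libraries to GRCh38 with STAR and estimated a count per gene with RSEM. These are the expected counts of the deposited table, which covers 58870 genes in 6 libraries and is not scaled between them. The strand setting and tool versions are not given in the sources used here. Nothing states that replicates came from separate cultures, so p-values measure only the spread between these libraries, which may be technical.

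A gene was kept when it reached 1 CPM in 3 or more libraries (15088 genes, holding 99.7% to 99.8% of the counts). After quantile normalization THUMPD1 KO was compared with WT by limma-voom (limma 3.58.1, R 4.3.3), two-sided, with Benjamini-Hochberg adjustment over all of them and a threshold of 0.05. This follows the methods of the study. Log2 fold changes and SE come from that fit, and CPM values from the expected counts and library totals. The scripts were tested on simulated data. edgeR 4.0.16 and DESeq2 1.42.0, on counts rounded to whole numbers, other scalings and filters, a replicate block, removal of a trend in GC content and length, centring outside chromosome 22 and leaving out each library were tried as alternatives.

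Gene positions, types and overlaps came from GENCODE 44 on GRCh38, in which 58472 IDs (99.3%) were found, while the methods name a later release. Promoter sequences came from RefSeq (GRCh38.p14), which held 52 of the 59 members, and some of its start sites differ from those of GENCODE. The members, their grouping by role and the list of partners were chosen with earlier results of these data known. The text names all 59 members, every partner that was called or that belongs to a complex described, and, of other tested protein-coding genes of chromosome 22 with a mean of at least 10 CPM in the higher genotype, the 5 highest and 5 lowest log2 fold changes. A few items that fall under this rule are not reported here. Genes at the ends of the arm, genes near SUN2, close copies and the other genes called higher were chosen after their values were seen. Libraries with the same replicate number deviated together from their group means (Pearson r of 0.26, 0.20 and 0.14 over 12957 genes). Libraries with different numbers had r between −0.218 and 0.093. The numbers may thus pair the libraries, most clearly for replicate 1. The main fit does not use such a pairing, and the replicate block does.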

Additional observations from a re-analysis of the deposited data

How the results depend on the processing

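The 59 members kept a negative log2 fold change in every setting tried, except SUN2, which was at 0.0153 once a trend in GC content and length was removed. The number of members called lower was 54 with the replicate block and between 49 and 55 in all settings, and between 49 and 52 when a library was left out. The replicate block changed the call of 1 member, DDX17. RANBP1, BRD1, SBF1 and CBX7 lost their call in at least 1 setting, and RBX1, EWSR1 and DDX17 gained it in at least 1. The member median of −0.31 moved to −0.29 with that trend removed, to −0.34 when centred outside chromosome 22, and to −0.40 over the 7 members that overlap no other gene. The median of all tested chromosome 22 genes, −0.34, moved to −0.31 with library sizes alone, to −0.31 with no CPM filter, to −0.30 with that trend removed and to −0.36 when centred outside chromosome 22. The cause of these moves was not tested. The count of partners called was 16, 22 with the replicate block, and between 10 and 15 when a library was left out. Calls over all tested genes moved as well. The number called lower was 1959 in the main fit, 2518 with the block and between 1343 and 2069 when a library was left out. With 3 libraries per genotype, an exact permutation test of a single gene cannot go below 0.1.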

Other observations

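Among tested protein-coding genes of chromosome 22 that were not listed and had a mean of at least 10 CPM in the higher genotype, those with the lowest log2 fold changes were DERL3 (−1.16), APOBEC3C (−1.11), PRAME (−1.10), XBP1 (−1.03) and APOL2 (50.9% of WT), which lie far below the median of the chromosome. XBP1, the transcription factor whose mRNA is spliced by IRE1 in the unfolded protein response, was at 147, 117 and 120 CPM in the WT libraries and at 66.8, 61.9 and 59.5 CPM in THUMPD1 KO. DERL3, which helps to move misfolded proteins out of the endoplasmic reticulum, was at 12.4, 9.34 and 10.1 CPM in the WT libraries and at 5.97, 4.08 and 4.62 CPM in THUMPD1 KO. PRAME, a cancer-testis antigen, was at 41.4, 42.7 and 41.7 CPM in the WT libraries and at 20.1, 19.1 and 18.8 CPM in THUMPD1 KO. In all 5 genes every THUMPD1 KO library was below every WT library. This follows largely from their choice as the lowest, and 72.0% of the tested chromosome 22 genes showed it.

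At the other end, 5 of the 181 genes that met the naming rule had a positive log2 fold change, namely HMOX1 (0.28), DMC1 (0.21), PHF21B (0.17), MORC2 (0.11) and GNB1L (0.02). HMOX1, the heme oxygenase of oxidative stress, was at 38.5, 34.2 and 34.0 CPM in the WT libraries and at 45.7, 40.4 and 43.6 CPM in THUMPD1 KO. Of all 375 tested genes of the chromosome 5 were called higher by limma-voom, and besides HMOX1 these were TPTEP1 (0.85), ENSG00000283633 (0.83), SLC2A11 (0.57) and OGFRP1 (0.28). TPTEP1 and ENSG00000283633 are noncoding and lie next to each other near the centromere, at 0.777 to 5.20 CPM in every library. SLC2A11, a sugar transporter, lies between SMARCB1 and MIF, both of which were lower.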
